A study of Mus musculus with 15 samples.

Results

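The early response of mouse pancreatic duct organoids to doxycycline was measured in 5 organoid lines, each sampled without doxycycline (0 h) and after 4 h of it. All libraries labelled 0 h or 4 h were taken, 5 of each and 10 of the 15 in the series, and every 4 h library was compared with the 0 h library of the same line. The study built organoids in which doxycycline switches on the making of CA19-9, a sialylated sugar epitope that mice do not make on their own. Lines A217, A220 and A225 were labelled CA19-9 inducible, and lines A218 and A223 lacked 1 of the alleles needed and were labelled genetic negative. The labels do not name the missing allele. Organoids came from normal pancreas ducts and grew in Matrigel with R-spondin, Noggin, EGF, FGF10, gastrin, nicotinamide, N-acetylcysteine and the receptor inhibitor A 83-01. Medium was renewed 24 h before harvest, doxycycline was added at 1 µg/ml, and all cultures were collected together, so that the 0 h and 4 h libraries shared the time since the medium change. The labels do not say what the 0 h cultures received in place of doxycycline. Both genotypes were pooled, and the transgene and human transcripts were left out, so the values describe mouse genes over lines with and without CA19-9 together. A change in the pooled lines need not be present in both genotypes.

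Doxycycline is a tetracycline antibiotic that binds the small subunit of bacterial ribosomes and also acts on the related ribosomes of mitochondria. In gene switches it brings the rtTA protein onto the promoter to be turned on, so a line that lacks the switch or its target receives the drug without the product. Pancreatic duct cells line the tubes that carry digestive juice, secrete bicarbonate and mucins, and depend on glutathione and other thiol systems whose genes are driven by the transcription factor NRF2.

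Estimated counts per library ranged from 48448180 to 59411540. The 17 duct markers together held 11700 to 14900 CPM (counts scaled to the library's total) in the 10 libraries, with Krt8 at a mean of 4020 CPM at 0 h and Krt19 at 1730 CPM. Markers of other cells were close to 0. The 13 acinar markers summed to at most 2.87 CPM, with Prss1, Cpa1, Amy2b, Pnlip and Ptf1a at 0 in all 10 libraries. The 9 endocrine markers summed to at most 0.235 CPM, and Ins1, Ins2, Gcg, Ppy and Neurog3 were at 0. The sums of the 8 immune, 9 fibroblast and 6 endothelial markers reached 4.43, 6.6 and 8.8 CPM. In RNA from whole cultures, fewer cells of a type and less RNA per cell cannot be told apart. The labels do not say that the lines came from separate mice. The spread behind each p-value is that of the paired changes of these 5 lines, with each gene's estimate drawn towards that of all tested genes.

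Of 15103 mouse genes tested, 1609 changed at 4 h (10.7%; adjusted p below 0.05, the meaning of "called" from here on). Of these, 708 rose (4.69% of those tested) and 901 fell (5.97%). Most changes were small. The median size among called genes was 0.19 on the log2 scale, 81 genes passed 1.5-fold and 35 passed 2-fold (0.232%), of which 29 rose and 6 fell. The largest rises were in Oprd1, Angptl4, Csf1, Clock and Slc29a3 and the largest falls in Gclc, Fam107a and Lypd6b, among called genes of at least 1 CPM with 1 sign in all 5 lines and with predicted genes left out. Fewer genes were called without line A217 (929) or without A220 (945), with an offset for transcript length (777) and without the pairing of lines (318).

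**Figure D1:**
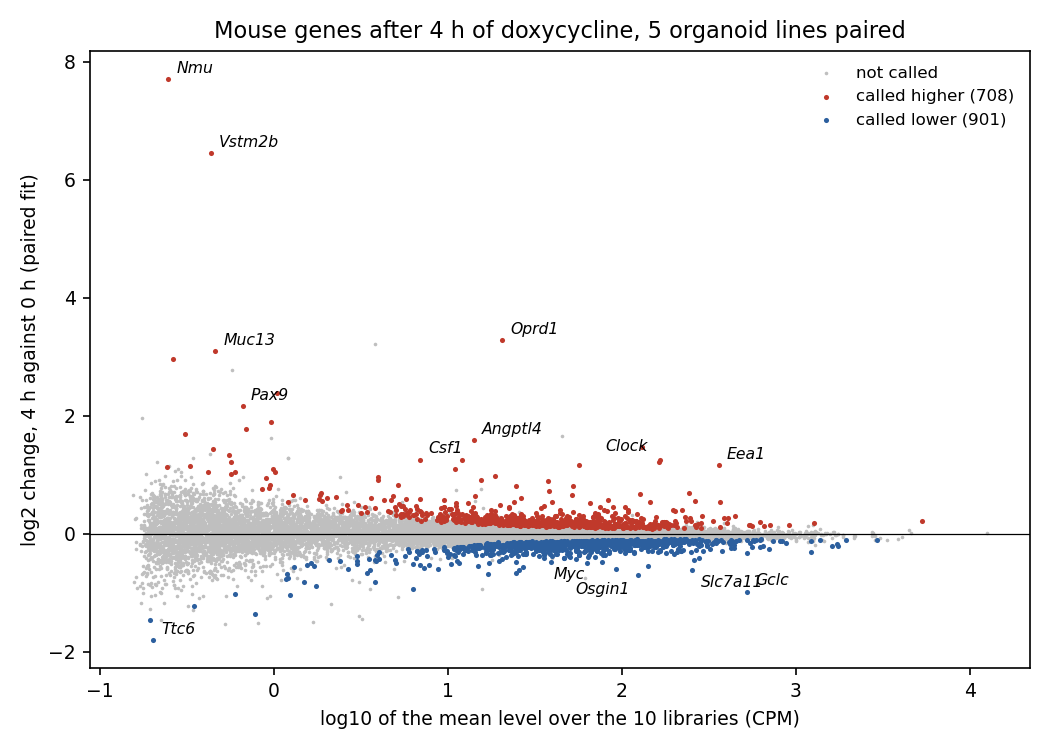
Each point is 1 of the 15103 tested genes, with its mean level over the 10 libraries (log10 of CPM) on the x axis and its log2 change from 0 h to 4 h in the paired fit on the y axis. The 708 genes called higher are red and the 901 called lower are blue; Oprd1 at 3.28 stands apart among genes above 1 CPM, and most called genes lie within 0.5 of 0.

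The response was also fitted in each genotype alone, so that no library was shared. Of 14889 genes tested in both fits, 974 were called in the 3 inducible lines (6.54%) and 538 in the 2 negative lines (3.61%). A set of 286 genes was called in both, which is 29.4% of the inducible calls and 53.2% of the negative calls, and 281 of them had the same sign. Of the 974 inducible calls, 923 (94.8%) had the same sign in the negative lines, and of the 538 negative calls, 490 (91.1%) had the same sign in the inducible lines. Over all 14889 genes that share was 65.9%. A test of the difference between the genotypes' responses called 1 gene of 15103 (0.00662%), the predicted gene Gm11518, and 830 genes had an unadjusted p below 0.05. With 3 inducible and 2 negative lines, genes whose responses differ between the genotypes may have been missed.

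Oprd1, the delta opioid receptor (chromosome 4, 132110726 to 132144486, minus strand, GRCm38), rose most among genes of at least 1 CPM. Its level at 0 h was 4.99, 3.44, 3.57, 3.53 and 3.49 CPM in A217, A218, A220, A223 and A225, in which order all values below are given. At 4 h it was 32.0, 36.1, 47.5, 32.2 and 38.7 CPM. Every 4 h library lay far above every 0 h library, and the rise was 9.73-fold (log2 3.28 ± 0.11 SE, adjusted p = 1.47e-08). Fitted apart, it was 3.28 in inducible and 3.29 in negative lines. The level at 24 h, against the same 0 h libraries, had a mean of 70.6 CPM.

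Angptl4, a secreted inhibitor of lipoprotein lipase, stood at 3.21, 7.07, 8.86, 8.32 and 7.69 CPM at 0 h. At 4 h the level was 9.94 CPM in A217 and between 21.4 and 26.8 CPM in the other lines. Line A217 was the lowest at both times, and even its 4 h value was above all 0 h values. The change was 3.0-fold (log2 1.58 ± 0.07, adjusted p = 1.32e-07). Slc29a3, a nucleoside transporter of lysosomes, went from between 5.79 and 8.07 CPM to between 14.9 and 18.5 CPM (log2 1.25 ± 0.05, adjusted p = 7.62e-08). Eea1, the early endosome protein that tethers vesicles for fusion, was at 162 to 251 CPM at 0 h. The 4 h values were 485, 524, 584, 518 and 375 CPM. A225 was lowest at both times, the groups did not overlap, and the rise was 2.23-fold (log2 1.16 ± 0.05, adjusted p = 6.86e-08). Of the 21 tested genes on a list of early endosome proteins, 3 rose (14.3%, against 4.69% of all genes) and 0 fell. Eea1, named for its large rise, is 1 of these 3 and adds no support to that share. Zfyve16 (0.19 ± 0.03) and Stam (0.15 ± 0.03) were the others, while Rab5a, Rab5b and Rab5c, the GTPases that recruit EEA1, were not called, at 0.07, 0.07 and -0.04. The call of Stam ended without the pairing of lines and in each genotype alone, and that of Zfyve16 in the negative lines alone. The median change of the list was 0.03.

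Several more genes about doubled. Fkbpl, of the FK506-binding protein family, rose by 1.09 ± 0.07 on the log2 scale (adjusted p = 1.45e-06), from between 6.2 and 8.04 to between 13.4 and 16.3 CPM. Nrip3 was even among lines, with 12.3 to 13.0 CPM at 0 h and 23.4 to 25.8 CPM at 4 h (log2 0.98 ± 0.05). Cttnbp2nl went from at most 28.9 to at least 44.4 CPM (0.90 ± 0.04) and Cdkn2d, an inhibitor of the cyclin D kinases, from at most 11.7 to at least 17.1 CPM (0.92 ± 0.09). Btbd17 rose at low level, from at most 0.878 to at least 1.1 CPM (1.05 ± 0.19). Cpeb2, which binds messenger RNA and controls translation, rose by 0.95 ± 0.10, and its call ended with the transcript length offset (adjusted p = 0.0831). Within Cpeb2, the transcript Cpeb2-205 held 48.7% of the gene's counts at 0 h and 38.5% at 4 h, lower in 5 of 5 lines. All 15 genes with the largest rises stayed called when any 1 line was left out.

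**Figure D2:**
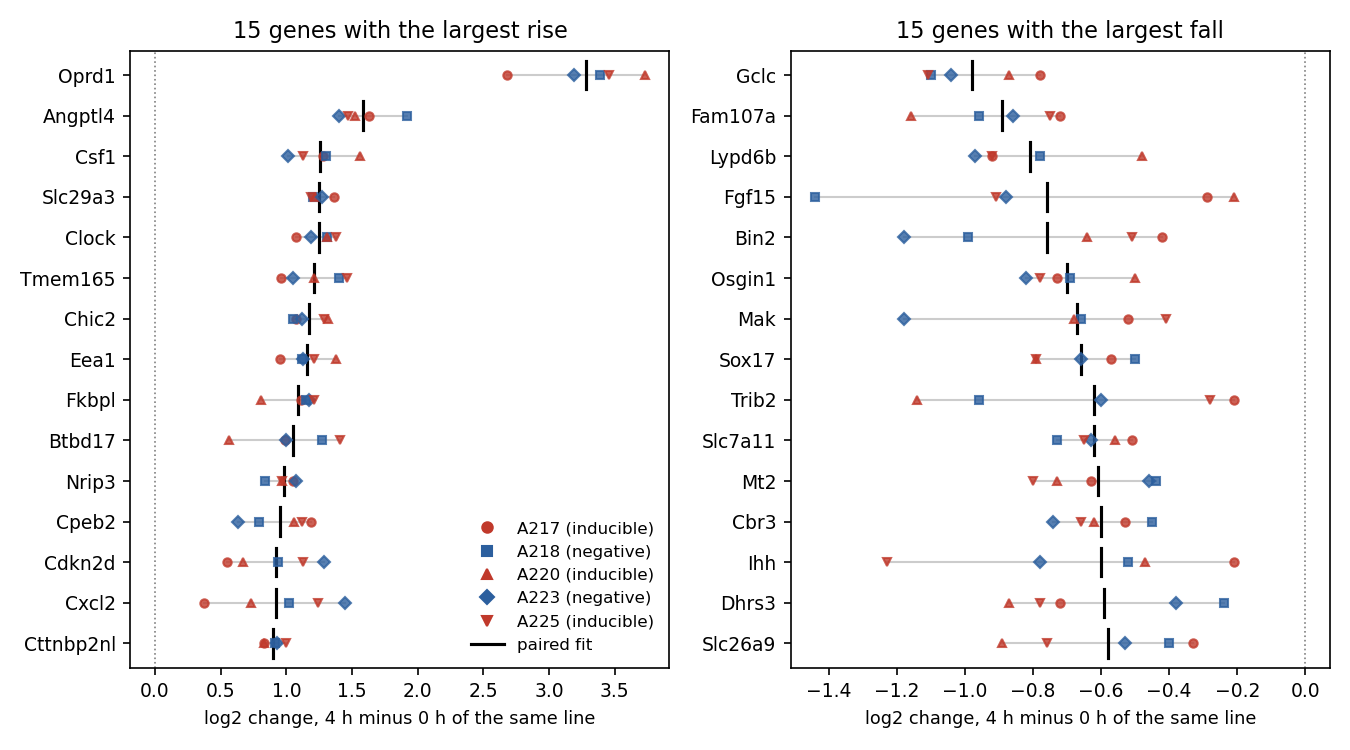
The log2 change of each line (4 h minus 0 h, x axis, with different ranges in the panels) for the 15 genes that rose most (left) and fell most (right) among called genes of at least 1 CPM with the same sign in every line, predicted genes left out. Symbols are lines, red inducible and blue negative, grey bars span the 5 lines and black marks are the paired fit; red and blue symbols are mixed for Oprd1, Clock and Gclc, while Fgf15 spans -1.44 to -0.21.

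Clock and Tmem165 lie side by side on chromosome 5, and Chic2 on the same chromosome rose by a similar amount. The middle of Chic2 is far from them, at -1283.4 kb from the annotated start of Clock. Clock encodes a core transcription factor of the circadian oscillator (76209868 to 76304792, minus strand) and was at 98.9, 101, 91.5, 94.6 and 101 CPM at 0 h. At 4 h it was at 208, 249, 228, 216 and 263 CPM. The groups were wide apart, at 2.38-fold (log2 1.25 ± 0.04, adjusted p = 1.47e-08). Tmem165, a Golgi membrane protein needed for normal glycosylation, ends beside it (76183880 to 76209245, plus strand, 0.623 kb between the 3′ ends of the genes) and went from 102, 98.8, 92.6, 92.4 and 102 CPM to 198, 260, 214, 191 and 281 CPM. A218 and A225 were highest at 4 h for both genes, and no 4 h value of Tmem165 came near the 0 h range (1.21 ± 0.06, adjusted p = 2.73e-07). Chic2 (74997988 to 75044774, minus strand) rose from between 32.7 and 36.7 CPM to between 68.9 and 89.4 CPM (1.17 ± 0.05, adjusted p = 4.04e-08).

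Nmu, which encodes the peptide neuromedin U and lies 28.7 kb from Clock, was not detected at 0 h, with 0 counts in all 5 libraries. At 4 h it had 18, 35, 22, 24 and 29 counts. Against a floor of 3 counts over the 0 h group the level was at least 44.2-fold higher. With no reads at 0 h, Nmu passed the expression filter only through the 4 h libraries, so its call adds no support to the count that follows. Within 500 kb of Clock, 6 of 8 tested neighbours were called higher (75%, against 4.69% of all genes) and 0 lower. Besides Tmem165 and Nmu these were Srd5a3 (0.26 ± 0.04), Exoc1 (0.26 ± 0.04), Cep135 (0.23 ± 0.05) and the pseudogene Apc-ps1. Apc-ps1 lies inside Tmem165, so its reads may belong to Tmem165. The 75% counts both Nmu and Apc-ps1 and so overstates the share of separately measured neighbours. In a window of 1500 kb on either side, chosen after the values were seen, 12 of 20 tested genes rose and 0 fell. Clock, Nmu and Apc-ps1 are among the 12. Those farther out were Chic2, Aasdh (0.28 ± 0.06), Ppat (0.27 ± 0.04), Hopx (0.64 ± 0.11) and Igfbp7 (0.15 ± 0.03). The call of Aasdh ended without A220 and that of Igfbp7 without A225 (adjusted p = 0.0612). Paics, Srp72, Rest, Noa1 and Polr2b lay among them with changes of -0.04 to 0.08 and were not called. For Clock the change was 1.26 in inducible and 1.25 in negative lines, and for Tmem165 it was 1.21 and 1.22. Around other genes with large rises the share of tested neighbours called higher within 500 kb was lower, at 3 of 12 for Nrip3 (25%), 3 of 13 for Cxcl2 (23.1%), 1 of 6 for Slc29a3 (16.7%), 1 of 18 for Oprd1 (5.56%) and 0 of 3 for Eea1. Of the neighbours of Oprd1, 3 more were called lower. Around Chic2, 0 of 4 tested neighbours were called higher.

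**Figure D3:**
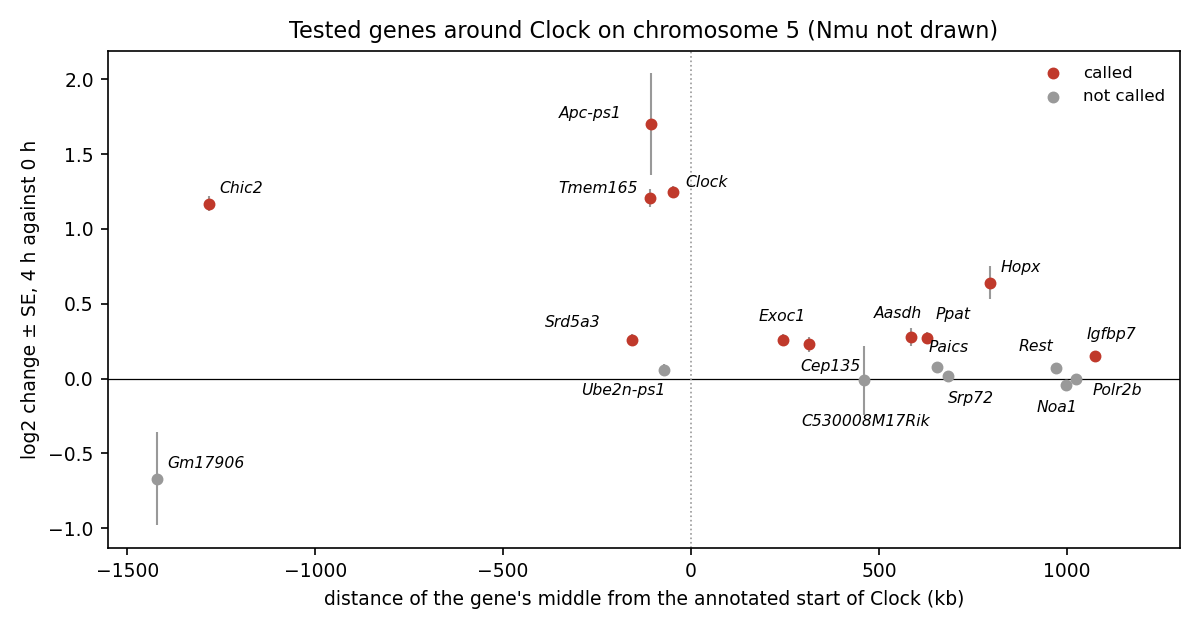
The log2 change from 0 h to 4 h with its standard error (y axis) for tested genes around Clock on chromosome 5, by the distance of the gene's middle from the annotated start of Clock in kb (x axis). Red genes were called; Clock, Tmem165 and Chic2 lie between 1.17 and 1.25 and most of the other called genes between 0.15 and 0.28. Nmu, with 0 counts at 0 h, is not drawn.

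Some genes under 1 CPM had few reads at 0 h. Vstm2b, Muc13 and Pax9 passed the expression filter only with the 4 h libraries, where they were high. Their calls, intervals and agreement among lines therefore add no support, and the counts are given as values. Vstm2b had 1, 0, 1, 0 and 0 counts at 0 h and 64, 45, 55, 28 and 29 at 4 h. The ratio was 115 (95% counting interval 31.4 to 952), every line rose, and at 24 h, against the same 0 h libraries, the counts were 342, 387, 571, 505 and 339. Muc13, a membrane mucin of gut epithelium, had 5, 15, 2, 4 and 1 counts at 0 h and 50, 44, 50, 35 and 32 at 4 h. Its groups did not overlap and the ratio was 8.1 (5.41 to 12.6). Pax9, a transcription factor of the foregut, went from 37, 16, 16, 0 and 3 counts to 72, 54, 83, 30 and 28. The groups overlapped because A217 was high at both times. Each line rose, and the ratio was 3.85 (2.95 to 5.06).

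Among the genes that fell were most targets of NRF2, the transcription factor that drives glutathione synthesis, thioredoxin and detoxifying enzymes. Of 30 tested targets, 21 fell (70%, against 5.97% of all genes) and 0 rose. The median change was -0.13, against 0 for all genes, and 29 of 30 estimates were below 0. Without line A217, 13 fell. Gclc, the catalytic subunit of the first enzyme of glutathione synthesis, had the largest fall among called genes of at least 1 CPM with 1 sign in all lines. Its levels at 0 h were 691, 650, 656, 710 and 768 CPM. At 4 h they were 403, 304, 360, 344 and 356 CPM. No 4 h library reached the lowest 0 h library, and the fall was 0.98 ± 0.05 on the log2 scale (adjusted p = 1.56e-07), with -0.92 in inducible and -1.07 in negative lines. At 24 h, against the same 0 h libraries, Gclc had a mean of 764 CPM beside 695 CPM at 0 h.

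Slc7a11, the cystine importer that supplies glutathione synthesis, was at 328, 322, 298, 315 and 272 CPM at 0 h and at 230, 194, 202, 204 and 174 CPM at 4 h. The groups did not overlap (-0.62 ± 0.03, adjusted p = 4e-07). Osgin1, an oxidative stress-induced growth inhibitor, was at 136, 168, 152, 163 and 148 CPM and then at 81.7, 105, 107, 92.2 and 86.7 CPM. All 4 h values were again below all 0 h values (-0.70 ± 0.04, adjusted p = 1.14e-06). Cbr3, a carbonyl reductase, fell by 0.60 ± 0.04 and Srxn1, which repairs oxidised peroxiredoxins, by 0.55 ± 0.03. Gclm, the partner subunit of GCLC, fell by 0.27 ± 0.03, less than Gclc in every line. Txnrd1, the cytosolic thioredoxin reductase, fell by 0.23 ± 0.03. The enzymes that make NADPH fell less: Pgd by 0.21 ± 0.03 and G6pdx by 0.14 ± 0.03. The genes not called were Hmox1, Taldo1, Me1, Prdx1, Txn1, Abcc1, Abcc4, Ephx1 and Trim16, with changes of -0.13 to 0.08.

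**Figure D4:**
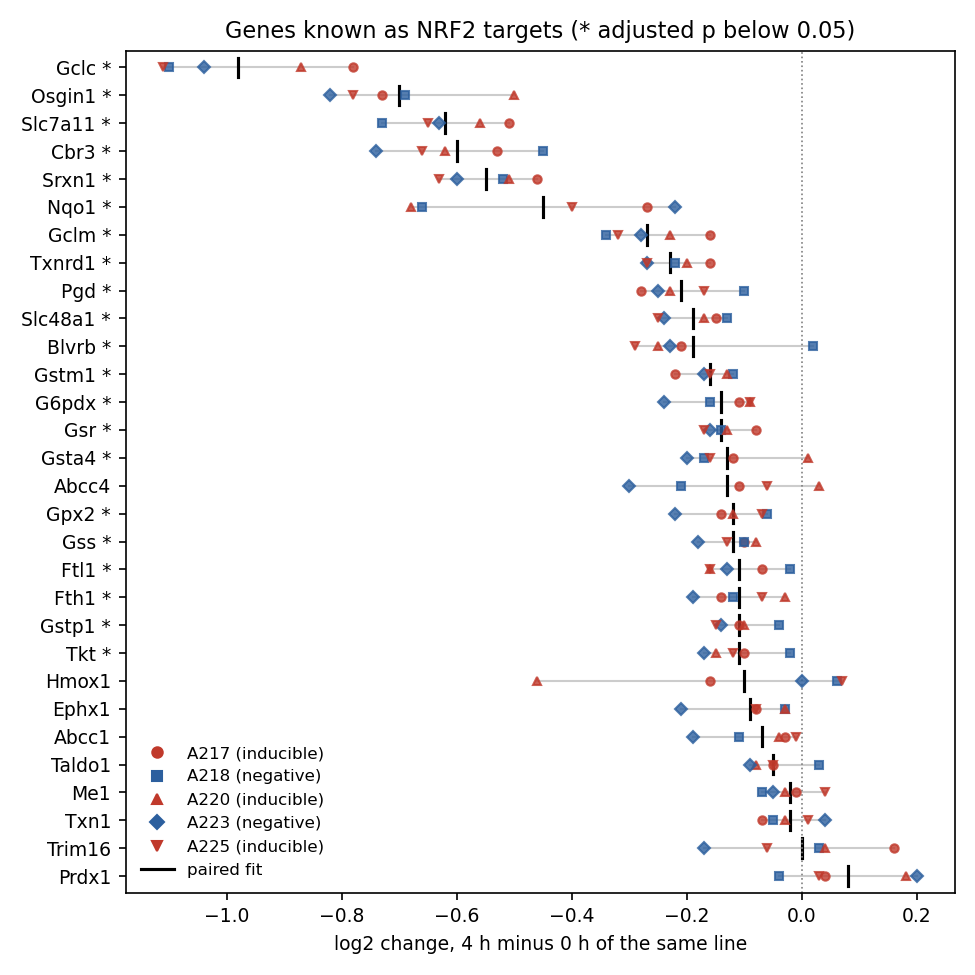
The log2 change of each line (4 h minus 0 h, x axis) for the 30 tested targets of NRF2, with symbols for lines, red for inducible and blue for negative, grey bars for the range and black marks for the paired fit. An asterisk marks the 21 called genes; Gclc, Osgin1, Slc7a11, Cbr3 and Srxn1 fell in all 5 lines by 0.45 or more, and Prdx1 has the highest estimate at 0.08.

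The regulators of this system moved little at the RNA level. Nfe2l2, which encodes NRF2, had 598, 620, 598, 619 and 580 CPM at 0 h and 561, 562, 528, 568 and 557 CPM at 4 h. The groups did not overlap, although the fall was only 0.12 ± 0.03 (adjusted p = 0.0166), and its call ended without A217 (adjusted p = 0.0544) or A220 (0.0697). Keap1, which marks NRF2 for degradation, had a change of -0.01 ± 0.03 (adjusted p = 0.841), and Bach1, a repressor at the same sites, of 0.13 ± 0.04 (adjusted p = 0.0718).

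NRF2 binds DNA at antioxidant response elements with the core TGACNNNGC. This core was searched on both strands in RefSeq promoter windows of GRCm38.p6, from 250 bases before to 50 bases after a transcription start. It was found for 8 of 23 list members with a window (34.8%), 5 of the 17 called lower (29.4%) and 3 of the 6 not called (50%). Among tested genes the share was 16.4%, among all windows 12.4%, among all genes called lower 17.5% and among all called higher 20.4%. The stretches around 4 such cores that lie before the start are printed to show the element in 3 genes that fell and in Prdx1, which was not called; they run along the strand of the gene, and capitals mark the core, which in each is read on the opposite strand.
Gclm (chr3:122245407-122245447, plus strand): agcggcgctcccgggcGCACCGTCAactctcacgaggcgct
Txnrd1 (chr10:82859098-82859138, plus strand): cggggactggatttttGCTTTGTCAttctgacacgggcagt
G6pdx (chrX:74428913-74428953, minus strand): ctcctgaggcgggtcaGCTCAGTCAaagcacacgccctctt
Prdx1 (chr4:116685450-116685490, plus strand): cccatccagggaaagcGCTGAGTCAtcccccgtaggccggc
The core begins 134 bases before the start in Gclm, 92 in Txnrd1, 57 in G6pdx and 133 in Prdx1. Gclm, Txnrd1 and G6pdx fell by 0.27, 0.23 and 0.14, while Prdx1 had a change of 0.08 ± 0.04 (adjusted p = 0.181). Gclc, with the largest fall, is not among the 8 members with the core in this window, which says nothing of sites farther away.

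Metallothioneins, small proteins that bind zinc and copper, also fell. Mt2 was at 34.9, 28.4, 31.7, 35.6 and 23.3 CPM at 0 h and at 22.5, 20.9, 19.1, 25.9 and 13.4 CPM at 4 h. Each line fell, though the groups overlapped because A225 started low (-0.61 ± 0.05, adjusted p = 3.66e-05). Mt1 fell by 0.29 ± 0.04 and the zinc exporter Slc30a1 by 0.26 ± 0.05. Of 15 tested genes of metal handling, 4 fell (26.7%, against 5.97% of all genes) and 1 rose (6.67%, against 4.69%). The median was -0.07, and 0 rose without A217, A220, A223 or A225. At 24 h, against the same 0 h libraries, Mt2 had a mean of 63.9 CPM and Mt1 of 252 CPM, beside 30.8 and 155 CPM at 0 h.

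Genes of the integrated stress response, the programme that ATF4 drives when amino acids run short or mitochondria fail, were mostly not called: of 33 tested, 7 fell (21.2%, against 5.97% of all genes) and 1 rose (3.03%, against 4.69%), with a median of -0.02. Those that fell included the amino acid transporters Slc7a5 (-0.28 ± 0.05) and Slc3a2 (-0.22 ± 0.03) and the secreted factors Gdf15 (-0.34 ± 0.06) and Stc2 (-0.26 ± 0.04). Chac1, an enzyme that degrades glutathione, was the 1 that rose (0.82 ± 0.23, adjusted p = 0.0445), higher in 4 of 5 lines, and its call ended when any of A218, A220, A223 or A225 was left out. Atf4 itself had 0.20 ± 0.07 (adjusted p = 0.105). In the unfolded protein response of the endoplasmic reticulum, 5 of 21 tested genes were higher (23.8%, against 4.69% of all genes) and 0 lower, with a median of 0.06. Dnajb9, a co-chaperone of the endoplasmic reticulum, was at 9.43, 8.75, 9.62, 8.01 and 7.98 CPM at 0 h and at 13.9, 9.82, 12.6, 11.5 and 10.9 CPM at 4 h. A218 rose least, and the groups did not overlap (0.42 ± 0.07, adjusted p = 0.00223). Herpud1, which serves the removal of misfolded proteins, rose by 0.33 ± 0.05 and the chaperone partner Dnajc3 by 0.22 ± 0.03. Without A217, and likewise without A220, 3 genes of this list rose.

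Transcripts of the mitochondrial genome rose, with 9 of 13 tested genes higher (69.2%, against 4.69% of all genes), 0 lower, and a median of 0.24. The count was 4 with the length offset, 4 with all 15 libraries and 4 in the inducible lines alone. It was 2 without the pairing of lines, 9 in the negative lines alone and 11 without an expression filter. They encode subunits of the respiratory chain and are made and translated inside mitochondria. The level of mt-Nd2 was 68.5, 70.7, 60.4, 67.1 and 76.2 CPM at 0 h and 88.2, 86.0, 87.3, 99.5 and 90.1 CPM at 4 h. The groups did not overlap (0.40 ± 0.05, adjusted p = 0.00033), and the subunit gene mt-Nd4 followed with 0.35 ± 0.06 (adjusted p = 0.00298). The median of the list differed between lines, from 0.02 in A225 to 0.53 in A223, and 5 genes rose without A220. None of 75 nuclear genes of the respiratory chain and none of 12 mitochondrial chaperones and proteases passed the test, against 10.7% of all genes. Both lists had a median of -0.01. Without A218, 1 respiratory chain gene was higher and 1 lower, and without A223, 1 was lower. Among 78 proteins of the mitochondrial ribosome, which tetracyclines bind, 1 rose (1.28%, against 4.69% of all genes) and 2 fell (2.56%, against 5.97%). These counts were 0 and 1 without A217 or A220, and 0 and 2 without A218. Mrpl12 fell by 0.24 ± 0.03 (adjusted p = 0.00132). Of 80 proteins of the cytosolic ribosome 1 fell (1.25%, against 5.97%), with 0 without A220 and 2 without A218 or A223.

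Myc, a transcription factor of growth and ribosome production, was at 68.6, 71.7, 78.7, 81.4 and 70.2 CPM at 0 h. At 4 h it was at 51.5, 51.3, 57.3, 51.2 and 52.0 CPM. All lines came to a similar level, below every 0 h value, and the fall was 0.49 ± 0.04 (adjusted p = 1.72e-05). Of 32 tested genes of MYC and ribosome biogenesis, 16 fell (50%, against 5.97% of all genes) and 0 rose, with a median of -0.11. Between 13 and 15 fell when a line was left out. Ppan (-0.32 ± 0.04), Rrp1b (-0.30 ± 0.05) and Nop2 (-0.26 ± 0.03), which all serve the making of ribosomal subunits, fell most after Myc, each with groups that did not overlap. Of 26 tested proliferation genes, 8 were lower (30.8%, against 5.97% of all genes) and 0 higher, with a median of -0.10. Cdt1 (-0.37 ± 0.04) and Cdc6 (-0.32 ± 0.04), which load the replicative helicase, fell most of these 8, and Mcm7, a subunit of that helicase, fell by 0.18 ± 0.03. That count was 4 without A217 and 4 without A220.

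Some inhibitors of the cell cycle were among the genes that rose. Cdkn1a, which encodes p21, was at 60.6, 60.0, 67.1, 80.1 and 67.3 CPM at 0 h and at 78.8, 92.0, 108, 112 and 107 CPM at 4 h. Each line rose, although A217 at 4 h lay below A223 at 0 h (0.57 ± 0.04, adjusted p = 1.17e-05). Ccng2, an atypical cyclin linked to arrest, rose from at most 21.2 to at least 25.4 CPM (0.53 ± 0.05, adjusted p = 2.36e-05). Of the 19 tested p53 targets and cell cycle inhibitors, 3 rose (15.8%, against 4.69% of all genes) and 0 fell. The median was 0.06, and the Cdkn2d rise given above is outside that list.

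Genes of inflammation and NF-kB signalling were mixed with a lean upward. Of 26 tested, 9 rose (34.6%, against 4.69% of all genes) and 2 fell (7.69%, against 5.97%), with a median of 0.15. Csf1, the growth factor of macrophages, was at 3.70, 4.13, 3.85, 4.08 and 4.67 CPM at 0 h and at 8.99, 10.2, 11.4, 8.22 and 10.3 CPM at 4 h. The groups did not overlap, and the rise was 2.39-fold (log2 1.26 ± 0.08, adjusted p = 3.46e-06). Cxcl2, a chemokine for neutrophils, was at 5.79, 2.97, 3.29, 1.29 and 1.16 CPM at 0 h and at 7.49, 6.06, 5.47, 3.54 and 2.75 CPM at 4 h. Lines differed several-fold in their level, so the groups overlapped, yet each line rose (0.92 ± 0.14, adjusted p = 0.00173). Its neighbour Cxcl1 rose by 0.57 ± 0.07. Il1a, an alarm cytokine of epithelia, rose from at most 0.818 to at least 1.2 CPM (1.10 ± 0.20, adjusted p = 0.00507). The feedback inhibitor Tnfaip3 rose by 0.27 ± 0.04, while Tnfaip2 fell by 0.32 ± 0.03 and Bcl3 by 0.26 ± 0.05. Tnf, Ccl2, Ccl20 and Cxcl5 were not called, with changes of -0.03 to 0.18. No interferon or antigen presentation gene was called among 19 tested, and the closest was B2m at 0.08 ± 0.03 (adjusted p = 0.0636).

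Of 21 tested genes of the circadian clock, 5 fell (23.8%, against 5.97% of all genes) and 2 rose (9.52%, against 4.69%). The median was -0.09. Beside Clock, its partner Arntl had a small rise of 0.19 ± 0.05 (adjusted p = 0.0405), which was not called without A218, A220, A223 or A225. Without A223 or without A225, 3 of the list fell. With the length offset, 1 of the list fell and 1 rose. Nr1d2, a repressor of the oscillator, fell by 0.27 ± 0.04 and Per1, a negative limb gene, by 0.38 ± 0.08. The fall of Per1 was not called with the length offset (adjusted p = 0.299), and the share of its transcript Per1-202 was 28.8% at 0 h and 19.4% at 4 h, lower in 5 of 5 lines. Among 23 tested splicing factors of the SR family and their kinases, 6 rose (26.1%, against 4.69%) and 2 fell (8.7%, against 5.97%). The median was 0.03, and 3 rose without A217. With the length offset, 2 of these 23 rose and 2 fell. Srsf5 fell with little spread among lines, from 296, 300, 298, 284 and 281 CPM at 0 h to 238, 247, 238, 250 and 237 CPM at 4 h. The groups did not overlap (-0.27 ± 0.03, adjusted p = 0.00014). The retained-intron transcript Srsf5-212 held 14.7% of its counts at 0 h and 20.3% at 4 h, higher in 5 of 5 lines. Tra2a rose by 0.23 ± 0.04 and Tra2b by 0.19 ± 0.03, both partners of SR proteins in splicing.

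Some targets of several growth pathways were among the genes that fell, by small amounts. The medium supplied R-spondin, and of 12 tested WNT targets 4 fell (33.3%, against 5.97% of all genes) and 0 rose, with a median of -0.19. Rnf43 (-0.31 ± 0.04) and Znrf3 (-0.34 ± 0.04), the ubiquitin ligases that R-spondin blocks, both had groups that did not overlap. Without A217 or without A220, 2 of the list fell. Id2 was at 548, 570, 587, 556 and 673 CPM at 0 h and at 474, 455, 473, 426 and 498 CPM at 4 h. A225 was highest at both times, no value overlapped (-0.33 ± 0.03, adjusted p = 9.52e-05), and Id1, a target of BMP signals like Id2, fell by 0.30 ± 0.04. Of 9 tested TGF-beta and BMP targets, 3 fell (33.3%, against 5.97% of all genes) and 1 rose (11.1%, against 4.69%). Their median was -0.10, and by line it ran from -0.16 in A220 to 0.18 in A218. In the Notch pathway the ligand Jag1 fell by 0.29 ± 0.05 and the ligand Dll1 rose by 0.45 ± 0.07. Of 9 tested genes of this pathway, 4 were lower (44.4%, against 5.97% of all genes) and 1 higher (11.1%, against 4.69%). Without A217, A220, A223 or A225, 2 were lower, and the call of Dll1 ended with the length offset (adjusted p = 0.12). Of the 19 tested genes of ERK feedback, 7 fell (36.8%, against 5.97%) and 3 rose (15.8%, against 4.69%), with a median of -0.05. The phosphatase gene Dusp4 (-0.22 ± 0.03) and Spry2 (-0.19 ± 0.03) fell, while Ereg, a ligand of the EGF receptor, rose by 0.30 ± 0.07. Without A220, 4 of the 19 fell. Of 11 tested YAP targets 4 fell (36.4%, against 5.97%) and 0 rose, with Ajuba at -0.21 ± 0.04, and 2 fell without A225. Of 9 tested glucocorticoid targets 4 fell (44.4%, against 5.97%) and 0 rose, with Fkbp5 at -0.22 ± 0.04. Only 1 fell with the length offset, 1 without the pairing of lines, and 1 in each genotype alone. Among 18 immediate early genes 2 rose (11.1%, against 4.69%) and 2 fell (11.1%, against 5.97%), or 0 and 3 without A220. Klf4 fell by 0.31 ± 0.05.

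Duct identity genes moved in both directions, with 3 of 17 markers higher (17.6%, against 4.69% of all genes) and 6 lower (35.3%, against 5.97%). Their median was -0.11. Onecut1 (-0.32 ± 0.04), Sox9 (-0.35 ± 0.07) and Pdx1 (-0.27 ± 0.04), transcription factors of the duct lineage, fell. Sox17, an endoderm factor outside the list, fell by 0.66 ± 0.05 (adjusted p = 8.82e-06), from at least 24.4 to at most 22.5 CPM. The tight junction gene Cldn4 rose by 0.19 ± 0.04, and Epcam was not called (-0.03 ± 0.03). Among other genes with the largest falls were Fam107a (-0.89 ± 0.14), Lypd6b (-0.81 ± 0.10), the kinase gene Mak (-0.67 ± 0.12), the retinaldehyde reductase gene Dhrs3 (-0.59 ± 0.09) and the chloride transporter gene Slc26a9 (-0.58 ± 0.09). The calls of Mak and Slc26a9 ended with the length offset. Bin2, Fgf15, Ihh and Trib2, with changes of -0.60 to -0.76, depended on single lines: leaving out A218 ended the calls of Bin2 (adjusted p = 0.0568), Fgf15 (0.103) and Trib2 (0.0602), and leaving out A223 those of Bin2 (0.0769), Fgf15 (0.0943) and Ihh (0.0607). Fgf15 was also lost without A225 (0.101) and Trib2 without A220 (0.0509).

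The mouse enzymes that build Lewis and related glycans were of interest because CA19-9 belongs to that family. Of 20 tested, 5 fell (25%, against 5.97% of all genes) and 0 rose, with a median of 0. St3gal4, a sialyltransferase, was at 278, 301, 282, 265 and 257 CPM at 0 h and at 237, 246, 235, 196 and 208 CPM at 4 h. The groups did not overlap (-0.31 ± 0.03, adjusted p = 0.000143), with -0.27 in inducible and -0.37 in negative lines. B3gnt3, which extends mucin-type glycans, fell by 0.22 ± 0.03. Leaving out A218 left 2 of the list lower, and leaving out A217, A223 or A225 left 3. Muc1, the main membrane mucin of ducts, fell by 0.16 ± 0.03 (adjusted p = 0.00971), a call that ended with the length offset (0.156).

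**Figure D5:**
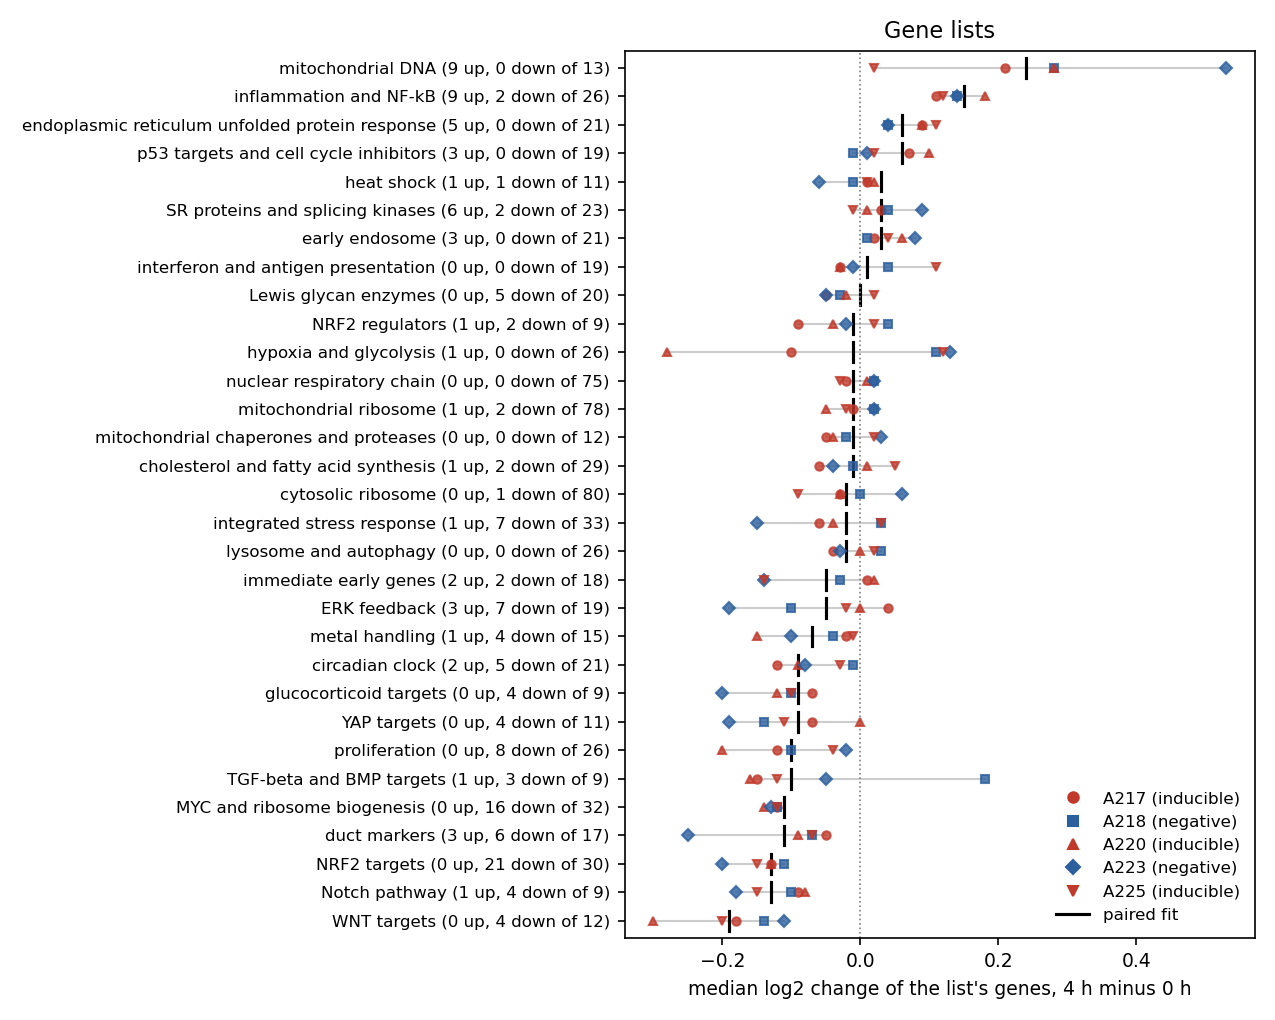
The median log2 change of the tested genes of each list with at least 9 of them (x axis), for each line (symbols, red inducible, blue negative) and in the paired fit (black marks); labels give how many genes were called higher and lower of those tested. The list of NRF2 targets is below 0 in all 5 lines with 21 of 30 called lower, and the mitochondrial genome is the highest with the widest range, 0.02 to 0.53.

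Several other lists are given as counts, beside shares over all genes of 4.69% called higher and 5.97% called lower. Of 26 lysosome and autophagy genes none was called. Among 26 genes of hypoxia and glycolysis 1 rose (3.85%), P4ha1. The medians of the lines spread from -0.28 in A220 to 0.13 in A223, and 5 rose without A220. P4ha1 was not called without A217, A218, A223 or A225. Of 29 genes of cholesterol and fatty acid synthesis 1 rose (3.45%) and 2 fell (6.9%). In that list 0 were lower without A217, and 0 were higher without A218, A220 or A225. Among 11 tested genes of heat shock 1 rose (9.09%) and 1 fell (9.09%). Hspb1 rose by 0.42 ± 0.08 and Hspa1b fell by 0.17 ± 0.04, the latter not called without A225 (adjusted p = 0.0539). Col1a1, a collagen gene of fibroblasts, rose by 1.01 ± 0.25 from 113 to 201 counts over the 5 lines. Of those, 71 and 108 were in A225, and the call ended without A217, A220 or A223. The summed fibroblast markers were at 1.92 to 5.09 CPM at 0 h and 2.15 to 6.6 CPM at 4 h, and their part in the result was not tested.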

How the data were processed

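Per the labels' protocols, RNA was cleared of ribosomal RNA with Ribo-Zero before TruSeq library preparation and paired-end sequencing. The submitters' processing notes list kallisto 0.43.1, DESeq2 1.18.1, DESeq and GRCm38, with no order. The deposited files hold estimated counts, effective lengths and TPM per transcript, per the file headers. No source used here states whether strand was used in counting, so reads of a gene and an overlapping antisense gene may be mixed. Estimated counts were summed per gene with GENCODE M21 and rounded. The 22 added sequences (EGFP and other vector sequences, human transcripts) and 1295 unmatched transcripts, 0.56 to 0.593% of a library's counts, were left out, which left 34547 genes. The deposited TPM values served only as weights for gene lengths in 1 alternative.

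Genes were tested with edgeR 4.0.16 in R 4.3.3 by quasi-likelihood, after TMM scaling (factors 0.991 to 1.011), edgeR's expression filter, and line and time as terms, on the 10 libraries (4 residual degrees of freedom, biological coefficient of variation 0.056). Benjamini-Hochberg adjustment ran over 15103 genes, and a gene was called below 0.05. A time by genotype term (3 residual degrees of freedom) tested the difference of responses. CPM use TMM-scaled totals. Ratios of few counts have 95% intervals, and a group at 0 was set to a floor of 3 counts over the group; these cover counting error only. Pairs follow the line in the labels: libraries of the same line correlated at 0.24 to 0.538 in their deviations from the time means. The fit was tested on simulated counts; alternatives included DESeq2 1.42.0 and limma 3.58.1. Replicate libraries differed beyond counting noise (chi-square per degree of freedom 15.87 to 35.45).

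Named genes were the 15 per direction with the largest change among called genes of at least 1 CPM with 1 sign in all 5 lines, leaving out predicted genes; up to 4 called members of a list, or the 2 with the smallest p where none was called; the regulators Nfe2l2, Keap1, Bach1, Atf4, Xbp1, Myc and Arntl; and up to 5 called genes under 1 CPM. Not every gene that the rule names is reported here. Further list members, the genes around Clock beyond 500 kb, the comparison of genotypes fitted apart and the printed promoters were chosen after their values were seen. The comparison, the gene lists and the rules were chosen with earlier results of these data known. Xbp1 was not called (0.04 ± 0.03).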

Additional observations from a re-analysis of the deposited data

Results flagged for a closer look

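Among 121 called named genes, the change in 1 line stood apart from the other 4 for 4 genes, where chance alone flags about 5% of genes. Fkbpl rose by 0.81 on the log2 scale in A220 and by 1.11 to 1.21 in the other lines. For Myc the change was -0.67 in A223 and -0.48 to -0.41 elsewhere. Slc30a1 had -0.16 in A217 against -0.31 to -0.27, and mt-Nd4l had 0.68 in A223 against 0.22 to 0.29. The response differed between genotypes by the test for the predicted gene Gm11518, higher by 10.25 ± 0.90 in inducible lines (adjusted p = 0.0073). Its levels were 0, 0.29, 0, 4.23 and 0.0168 CPM at 0 h and 9.32, 0, 0, 5.13 and 19.0 CPM at 4 h in A217, A218, A220, A223 and A225, so the difference rests on A217 and A225.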

How the results depend on the processing

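Without the replicate block (lines unpaired), 318 genes were called, 159 higher and 159 lower, all 318 among the 1609. The effective length offset gave 777 (327 higher, 450 lower), the inducible lines alone 976 (419 and 557) and the negative lines alone 548 (239 and 309). With 1 line left out, 929 to 1336 genes were called, 383 to 589 higher and 534 to 747 lower. DESeq2 (1638), limma-voom (1606), median-of-ratios scaling (1629), all 15 libraries (1492), no filter (1884), a filter of 1 CPM (1760) and equal weight of genotypes (1581) stayed within 1.5 times. For the difference between genotypes the 1 call became 0 without the replicate block, with limma-voom, the 1 CPM filter or the length offset, 13 with DESeq2, 38 without a filter, and 0 to 18 with 1 line left out. Of the 121 called named genes, none changed sign in an alternative that gave it a value (109 had one with DESeq2, 113 with the 1 CPM filter, 120 without A223 and all 121 in the others). Of these, 83 stayed called whichever line was left out, 74 lost their call without the replicate block and 37 with the length offset. The cause was not tested. With 5 lines, small changes may have been missed, and the smallest change that could be detected was not tested.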
